A study of Mus musculus with 6 samples.

Results

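The cells described here were wild-type (WT) group 2 innate lymphoid cells (ILC2s) that had been sorted from mouse lung and cultured before their RNA was taken. All 3 WT libraries of a series of 6 were used, chosen by their label, and all 18122 genes of the table were described in them. The series also holds libraries from ICOS KO mice, which were not used here. The labels give the WT genotype as BALB/C BYJ and the cDNA input as 10 pg of RNA per library. They do not say whether the 3 libraries came from separate mice or cultures, so the spread between them may be partly technical. Age, culture medium, added cytokines and days in culture are not stated, so the levels belong to cultured cells whose stimulation is unknown.

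ILC2s are tissue lymphocytes without rearranged antigen receptors. In the lung they sit beneath the airway lining and respond to alarmins, chiefly interleukin-33 through the receptor ST2 (gene Il1rl1), interleukin-25 and TSLP, and to interleukin-2 family cytokines, neuropeptides and lipid mediators. They release interleukin-5, which sustains eosinophils, and interleukin-13, which acts on epithelium and smooth muscle, and their identity depends on the transcription factors GATA3, RORα and ID2.

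Library totals were 18517247, 18736474 and 14976130 counts for WT replicates 1, 2 and 3. CPM are counts scaled to the same total in each library, and TPM are counts divided by transcript length and then scaled in the same way, so that levels of different genes can be compared. Errors are SD over the 3 libraries (n = 3) throughout. Of the 18122 genes, 11987 reached at least 1 CPM in every WT library, which is called detected below, and 65 had no count in any of them. The most abundant 790, 774 and 739 genes of replicates 1, 2 and 3 held as many counts as all other genes together. The 10 most abundant genes held 7.08 ± 0.253% of counts, the top 100 held 21.4 ± 0.578% and the top 1000 held 55.3 ± 0.606%. Only 87 genes had a mean of 1000 CPM or more, and these held 20.1% of counts, while 5274 genes with a mean under 1 CPM held 0.192%. Protein-coding genes held 97.2 ± 0.277% of counts and mitochondrially encoded genes 0.326 ± 0.0843%. Replicate 3 stood somewhat apart from the others, with 33 genes at least 2-fold lower in it than in both other libraries. Those genes are described near the end.

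The 5 ILC2 marker genes were all detected, in a table where 66.1% of all genes were. Gata3, the transcription factor that specifies type 2 lymphocytes, was at 940, 891 and 827 CPM in replicates 1, 2 and 3. Il1rl1, which encodes the interleukin-33 receptor ST2, was at 399, 378 and 379 CPM. Klrg1, an inhibitory lectin-like receptor found on mature ILC2s, was at 234, 235 and 267 CPM. The libraries thus lay close together for each of these genes, with a CV between 3.07% for Il1rl1 and 7.79% for Klrg1. Rora, which encodes RORα, was at 225, 213 and 207 CPM, and Il5 was at 6573, 6060 and 7157 CPM. Per length the order was Il5 with 11857 ± 802 TPM, Gata3 with 617 ± 56.2, Klrg1 with 479 ± 24.7, Il1rl1 with 155 ± 8.51 and Rora with 45.6 ± 3.19 TPM. Each step in that order was separated, meaning that the lowest library of the higher gene lay above the highest library of the lower gene. Il5 alone made up 90.1% of the summed TPM of the 5 markers. Gata3 lies at chr2:9857078-9890034 (GRCm38), Il1rl1 at chr1:40429570-40465415, Klrg1 at chr6:122270596-122282882 and Rora at chr9:68653786-69388246, all as protein-coding genes.

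A cytokine stood among the structural genes at the top of the transcriptome. The most abundant transcript on both scales was Ftl1, the light chain of the iron store ferritin, with 14355, 15340 and 14151 CPM and a mean of 30172 ± 1750 TPM. Tmsb4x, which encodes the actin-binding peptide thymosin beta 4, followed per length with 13890, 15192 and 16843 TPM. Lgals1, which encodes the secreted lectin galectin-1, was at 11054, 12824 and 12742 TPM, and Actb, cytoplasmic actin, was at 12296, 11364 and 12489 TPM. Il5 was at 12123, 10957 and 12493 TPM, which ranked it 5 per length and 4 by CPM. The values of Lgals1, Actb and Il5 overlapped, so their order among themselves was not resolved by 3 libraries. Ftl1 lay above all of them in every library. Ftl1 has pseudogene copies, and how reads were shared among such copies is not known here, nor for histone, MHC class I and immunoglobulin genes.

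**Figure D1:**
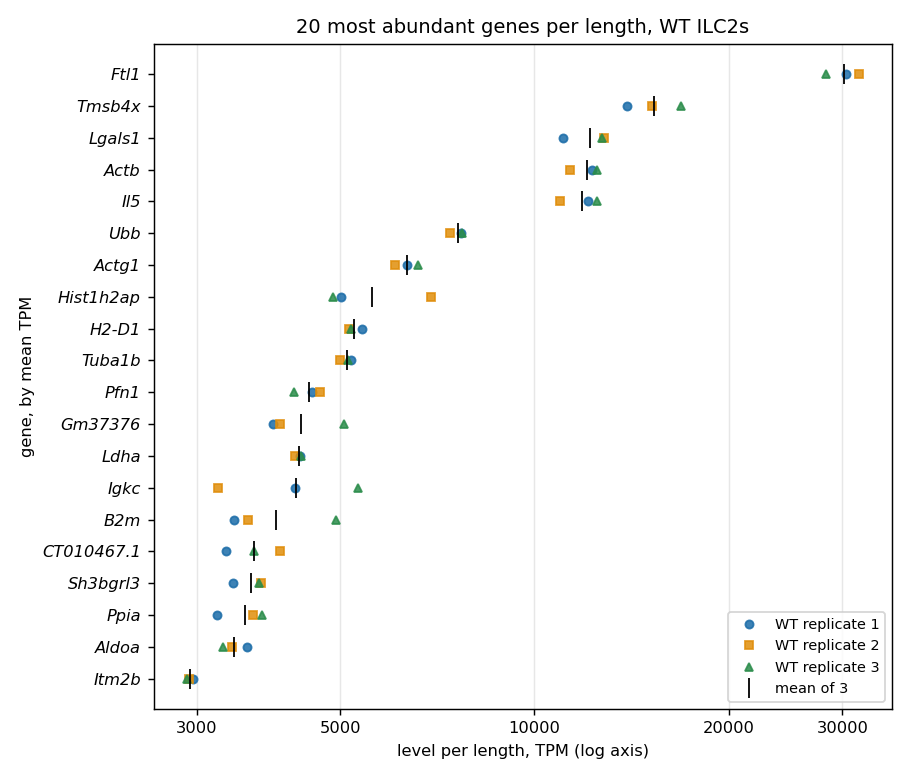
Level per length (TPM, log axis) of the 20 genes with the highest mean TPM, with 1 point per WT library and a bar at the mean of 3. Ftl1 stands alone at the top, the points of Lgals1, Actb and Il5 overlap, and Igkc, B2m and Hist1h2ap have the widest scatter.

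After these 5 genes came Ubb, a ubiquitin gene, with 7605 ± 187 TPM, and the second cytoplasmic actin gene Actg1 with 6345 ± 268 TPM. H2-D1, which encodes a classical MHC class I heavy chain, was at 5251 ± 126 TPM, and its light chain B2m was at 3982 ± 824 TPM. H2-D1 was steady, with 4909, 4794 and 4989 CPM, whereas B2m was at 1038, 1112 and 1580 CPM, highest in replicate 3. Tuba1b, an alpha-tubulin gene, and Pfn1, which encodes the actin-binding protein profilin, were at 5116 ± 99.5 and 4471 ± 215 TPM. Ppia, the peptidyl-prolyl isomerase cyclophilin A, was at 3558 ± 296 TPM. Sh3bgrl3 was at 3640 ± 197 TPM and Itm2b at 2924 ± 33.7 TPM. The glycolytic genes Ldha and Aldoa completed the protein-coding part of the top 20, apart from Hist1h2ap, a replication-dependent histone gene of 482 bases, which reached 5014, 6918 and 4878 TPM.

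Some entries in that top 20 were not ordinary messenger RNAs. CT010467.1 is annotated as ribosomal RNA on chromosome 17 and was at 2892, 3581 and 3373 CPM. Gm37376 has the biotype TEC, a class for gene models still awaiting experimental evidence, and lies inside Malat1, a nuclear long non-coding RNA. Gm37376 had 629, 658 and 857 CPM beside 629, 673 and 1014 CPM for Malat1, and reads of the overlapping pair cannot be divided with certainty. Igkc, the immunoglobulin kappa constant region, was at 798, 619 and 1056 CPM. Of the 20 highest genes by CPM, 14 were also among the 20 highest per length. Lars2, the mitochondrial leucyl-tRNA synthetase, ranked 11 by CPM with 4482 ± 182 but 114 per length with 1117 ± 31.3 TPM. With the longest annotated transcript as the length, Lars2 had 2391 TPM and ranked 28. Eno1, the glycolytic enzyme enolase, likewise moved from 2493 to 4970 TPM and Pkm, pyruvate kinase, from 2332 to 3603 TPM. Those were the only 3 of the 26 genes in either top 20 that the choice of length moved by over 1.5 times. Fth1, the ferritin heavy chain, was at 3272 ± 311 CPM, Gapdh at 2916 ± 275 CPM and the chaperone gene Hspa8 at 2891 ± 45.8 CPM.

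Il5 dominated the cytokine list. Of its 37 measured genes, 27 were detected, or 73.0%, beside 66.1% of all genes, and their median level was 36.8 TPM beside 6.40 TPM over all genes with a known length. Il5 made up 67.6% of the summed TPM of the list, and its mean was 6.57 times that of the next gene. Only Il5, Csf2 and Mif were above 1000 TPM. Csf2, which encodes the granulocyte-macrophage growth factor GM-CSF, was at 515, 530 and 522 CPM, or 1806 ± 48.6 TPM. Mif, macrophage migration inhibitory factor, was at 382, 441 and 438 CPM, or 1559 ± 95.9 TPM. Csf2 was separated from Mif per length, but with the longest transcript as the length Mif came first, with 1454 against 1357 TPM.

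The other type 2 cytokine genes lay far below Il5. Il9, a growth factor for ILC2s and mast cells, was at 80.9, 54.5 and 89.3 CPM, lowest in replicate 2, or 386 ± 90.0 TPM. Il13 was at 114, 109 and 114 CPM, or 258 ± 9.19 TPM. Il4, which drives type 2 helper T cells and antibody class switching, was at 17.2, 16.2 and 19.97 CPM, or 40.03 ± 3.52 TPM. The ratio of Il5 to Il13 per length was 45.2, 43.6 and 49.2 in the 3 libraries, and it was the same, 46.0, with either length. The ratio of Il13 to Il4 lay between 5.82 and 6.86 but was 3.18 with the longest transcript, because the annotated Il4 exons join to more bases than any 1 of its transcripts. Il9 and Il13 were separated, while Lta and Il9 were not.

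Further members filled the range between 100 and 400 TPM. Lta, which encodes lymphotoxin alpha, was at 397 ± 27.7 TPM and its partner Ltb at 239 ± 45.0 TPM, with 144, 142 and 106 CPM. Areg, the epidermal growth factor family member amphiregulin that acts in tissue repair, was at 88.9, 97.6 and 110 CPM, or 224 ± 17.2 TPM. Osm, oncostatin M, was at 160 ± 7.61 TPM. Il10, an anti-inflammatory cytokine, was at 40.7, 49.7 and 53.5 CPM, or 101 ± 11.4 TPM. Tnf was at 36.8 ± 4.87 TPM and Il6 at 2.79 ± 0.910 TPM. The 10 undetected members were Tnfsf12, Il1a, Il1b, Il2, Fasl, Il33, Il18, Il17a, Il11 and Tnfsf13b. Il2 for example had 0.706, 0.323 and 0.403 CPM, beside floors of 0.162, 0.160 and 0.200 CPM for 3 counts. Listed genes that were absent from the table, among them Il3, Il21 and Ifng, were not analysed here. In such bulk RNA a low mean can come from few cells or from little RNA per cell, which cannot be told apart.

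The sequence before the start of transcription is shown for cytokine genes that stand at different levels in that order, with a pair of motifs looked for. The capitals mark TATAAA or TATATA, the core promoter element, where it begins 20 to 40 bases before the start on the coding strand, and AGATAA or TGATAA, some of the letters that GATA factors bind, on either strand. Each stretch is the 250 bases before the start from RefSeq on GRCm38.p6, read 5′ to 3′ on the strand of the gene. Il5 is at chr11:53720544-53720793 (plus strand), Csf2 at chr11:54249900-54250149 (minus), Il13 at chr11:53634703-53634952 (minus), Areg at chr5:91139349-91139598 (plus) and Il4, for the more upstream of its 2 starts, at chr11:53618666-53618915 (minus).
Il5: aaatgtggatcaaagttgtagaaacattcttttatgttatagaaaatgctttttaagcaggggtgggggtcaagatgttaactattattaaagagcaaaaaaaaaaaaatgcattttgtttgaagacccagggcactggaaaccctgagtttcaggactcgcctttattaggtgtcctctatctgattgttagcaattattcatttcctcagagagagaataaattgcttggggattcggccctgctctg
Csf2: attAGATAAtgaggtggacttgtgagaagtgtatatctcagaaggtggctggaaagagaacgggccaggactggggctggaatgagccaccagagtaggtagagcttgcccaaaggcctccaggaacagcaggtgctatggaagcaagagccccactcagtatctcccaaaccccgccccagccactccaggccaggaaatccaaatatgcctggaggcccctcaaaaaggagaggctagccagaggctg
Il13: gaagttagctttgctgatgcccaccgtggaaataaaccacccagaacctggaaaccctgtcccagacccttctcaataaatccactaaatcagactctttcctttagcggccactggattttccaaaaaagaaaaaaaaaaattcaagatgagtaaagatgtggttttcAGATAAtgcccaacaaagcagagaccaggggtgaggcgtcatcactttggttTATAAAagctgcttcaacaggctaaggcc
Areg: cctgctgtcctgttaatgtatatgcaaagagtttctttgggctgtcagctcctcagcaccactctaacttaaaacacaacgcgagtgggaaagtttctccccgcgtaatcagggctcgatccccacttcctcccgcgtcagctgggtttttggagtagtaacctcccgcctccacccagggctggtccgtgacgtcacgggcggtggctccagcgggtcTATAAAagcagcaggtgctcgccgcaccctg
Il4: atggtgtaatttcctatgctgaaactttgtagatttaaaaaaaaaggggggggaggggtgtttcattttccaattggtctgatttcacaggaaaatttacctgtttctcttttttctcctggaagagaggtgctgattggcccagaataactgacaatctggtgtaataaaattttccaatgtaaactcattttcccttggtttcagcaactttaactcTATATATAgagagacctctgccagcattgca
Il13 had TATAAA from base 29 and AGATAA at base 81 before the start, Areg had TATAAA from base 31, and Il4 had overlapping TATATA from bases 31 and 29. Csf2 had AGATAA alone, 247 bases before the start, and the printed stretch of Il5 had none of these letters. Other forms of the GATA motif, AGATAG and TGATAG, were searched after the values were seen and are not in capitals. Il5 had AGATAG on the other strand, from base 72 before the start. In the stretches of Il9 and Lta, which are not printed, neither motif nor the other GATA forms were found. The more downstream start of Il4 had no TATA letters and had TGATAG at base 80. The TATA letters were in 34.3% of the 35 cytokine genes with a promoter in the table and in 22.7% of the 22 detected ones. For comparison they were in 1.89% of 8783 detected genes, in 3.30% of all 27025 genes with a promoter and in 10.1% of the 69 genes with a promoter among the 100 most abundant per length. The GATA letters, counted over 250 bases before to 50 after the start, were in 22.9% of the cytokine genes, in 12.1% of detected genes and in 20.96% of all. With AGATAG and TGATAG included these shares were 42.9, 21.6 and 33.0%. Such matches are descriptions of letters and not of binding.

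Interleukin-2 receptor chains led the cytokine receptors. Of 40 genes in this list 32 were detected, or 80.0%, beside 66.1% of all genes, with a median of 26.7 TPM. Il2rg, the common gamma chain shared by several interleukin receptors, was at 913, 858 and 904 CPM, or 1033 ± 44.8 TPM. Il2ra, the alpha chain (CD25) that gives the receptor high affinity, was at 1509, 1394 and 1446 CPM, or 702 ± 40.6 TPM, and Il2rb, the beta chain, was at 597, 525 and 516 CPM, or 353 ± 37.5 TPM. By CPM, without the division by length, Il2ra led instead of Il2rg.

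Between the interleukin-2 receptor chains stood Il1r2, which encodes the decoy receptor for interleukin-1. It was at 569, 580 and 671 CPM, or 878 ± 57.1 TPM, separated from Il2rg above it and Il2ra below it. Its signalling counterpart Il1r1 was not detected, with a mean of 0.387 CPM. Il27ra and Il12rb1, receptor chains for interleukin-27 and interleukin-12, were at 217 ± 25.2 and 211 ± 34.6 TPM and were not separated from each other. Among the alarmin receptors Il1rl1 led with 164, 152 and 148 TPM. Il17rb, a chain of the interleukin-25 receptor, was at 38.8, 36.9 and 34.5 TPM and Crlf2, the TSLP receptor chain, at 32.5, 26.0 and 25.8 TPM. Il7r, the interleukin-7 receptor alpha chain, was at 43.3 ± 4.94 TPM and Il9r at 41.0 ± 4.31 TPM. Il1rap, the co-receptor with which ST2 signals, was at 9.45, 6.67 and 6.94 CPM, or 1.88 ± 0.417 TPM. The ratio of Il1rl1 to Il1rap per length was 69.6, 93.4 and 90.0, or 42.7 between the means with the longest transcript. The 8 undetected receptors were Il21r, Il13ra1, Il12rb2, Il1r1, Il6ra, Flt3, Il5ra and Osmr. Il5ra, the receptor for the most abundant cytokine, had a mean of 0.0534 CPM, below the floor of 3 counts over the group of 0.0574 CPM.

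Among costimulatory and inhibitory receptors the most abundant was Tnfrsf18, which encodes the TNF receptor family member GITR. Tnfrsf18 was at 651, 670 and 675 CPM, or 1207 ± 17.5 TPM, 2.13 times the next gene. Pdcd1, the inhibitory receptor PD-1, was at 437, 387 and 357 CPM, or 565 ± 73.2 TPM, and Tnfrsf9, the costimulator 4-1BB, was at 496 ± 54.3 TPM. Pdcd1, Tnfrsf9 and Klrg1 followed each other without separation. Icos, the inducible costimulator, was at 447, 469 and 511 CPM, or 383 ± 15.2 TPM, and was separated from Klrg1 above and from Tnfrsf8 (CD30) below, which was at 232 ± 24.2 TPM. Icos lies at chr1:60977927-61000320, beside its relatives Cd28 and Ctla4, which were much lower. Cd28 was at 9.56, 7.47 and 9.82 CPM and Ctla4 at 11.1, 12.4 and 10.3 CPM. The ligand gene Icosl was at 19.2, 15.1 and 11.8 CPM, or 9.24 ± 2.49 TPM. Of the 30 genes 27 were detected, or 90.0%, beside 66.1% of all genes. Lag3 and Btla, both inhibitory receptors, had means of 0.255 and 0.326 CPM and were not detected, nor was Cd244a.

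Receptors for chemokines, lipids and neuropeptides were led by Cxcr6. This receptor for CXCL16 was at 1667, 1671 and 1796 CPM, or 2449 ± 45.4 TPM, and ranked 26 per length among all genes. Ltb4r1, the high-affinity receptor for the lipid leukotriene B4, was at 706, 712 and 729 CPM, or 1419 ± 16.6 TPM. These 2 genes were the only members of the list above 1000 TPM, and Ltb4r1 was 4.87 times the next gene. Nmur1, the neuromedin U receptor by which nerves act on ILC2s, was at 190, 172 and 174 CPM, or 292 ± 23.1 TPM. Ccr8, a chemokine receptor of type 2 lymphocytes, was at 213 ± 21.3 TPM, Ptgir, the prostacyclin receptor, at 157 ± 17.1 TPM and the lymph-node homing receptor Ccr7 at 135 ± 10.3 TPM. Cysltr1, a receptor for cysteinyl leukotrienes, was at 101 ± 7.51 TPM. The first 5 of these were separated from each other, Ptgir and Ccr7 were not. Of 38 genes 27 were detected, or 71.1%, near the 66.1% of all genes. Cxcr3, Ccr6, Ccr9, Ccr10 and Cx3cr1 were among the 11 that were not.

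Id2 led the transcription factors. Of 100 genes in the list 88 were detected, beside 66.1% of all genes, with a median of 21.8 TPM. Id2, a helix-loop-helix inhibitor that all innate lymphoid cells need, was at 1360, 1443 and 1518 CPM, or 1632 ± 45.5 TPM, 2.24 times the next gene. Xbp1, which drives the secretory stress response, was at 902, 847 and 820 CPM, or 730 ± 55.1 TPM. Junb, an AP-1 subunit, was at 606, 547 and 465 CPM, or 650 ± 103 TPM, and overlapped with Gata3. Jund, another AP-1 subunit, was at 237, 231 and 174 CPM, lowest in replicate 3, and Batf, an AP-1 partner in lymphocytes, was at 158, 159 and 174 CPM. Pparg, a lipid-sensing nuclear receptor, was at 203, 202 and 219 CPM, or 194 ± 4.53 TPM. Rora, with an exon union of 13071 bases, came well below Pparg per length although their means were close by CPM, 215 ± 9.31 and 208 ± 9.48.

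Some factors of other lymphocyte programmes were near the detection limit. Gata3 exceeded Rora per length by 13.7, 13.7 and 13.1 times. Tbx21, which encodes the type 1 factor T-bet, was at 2.92, 2.29 and 1.14 CPM, and Gata3 exceeded it by 202 to 456 times. Tcf7, a factor of early lymphoid progenitors, was at 3.24, 3.74 and 1.34 CPM. Bcl11b and Gfi1, both needed for ILC2 identity, were at 40.5 ± 6.33 and 29.2 ± 2.85 TPM. Undetected members included Eomes, Zbtb16, Bcl6, Bach2, Cebpa, Gata1, Nr1h3, Mitf, Nr4a2, Egr3 and Klf4.

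**Figure D2:**
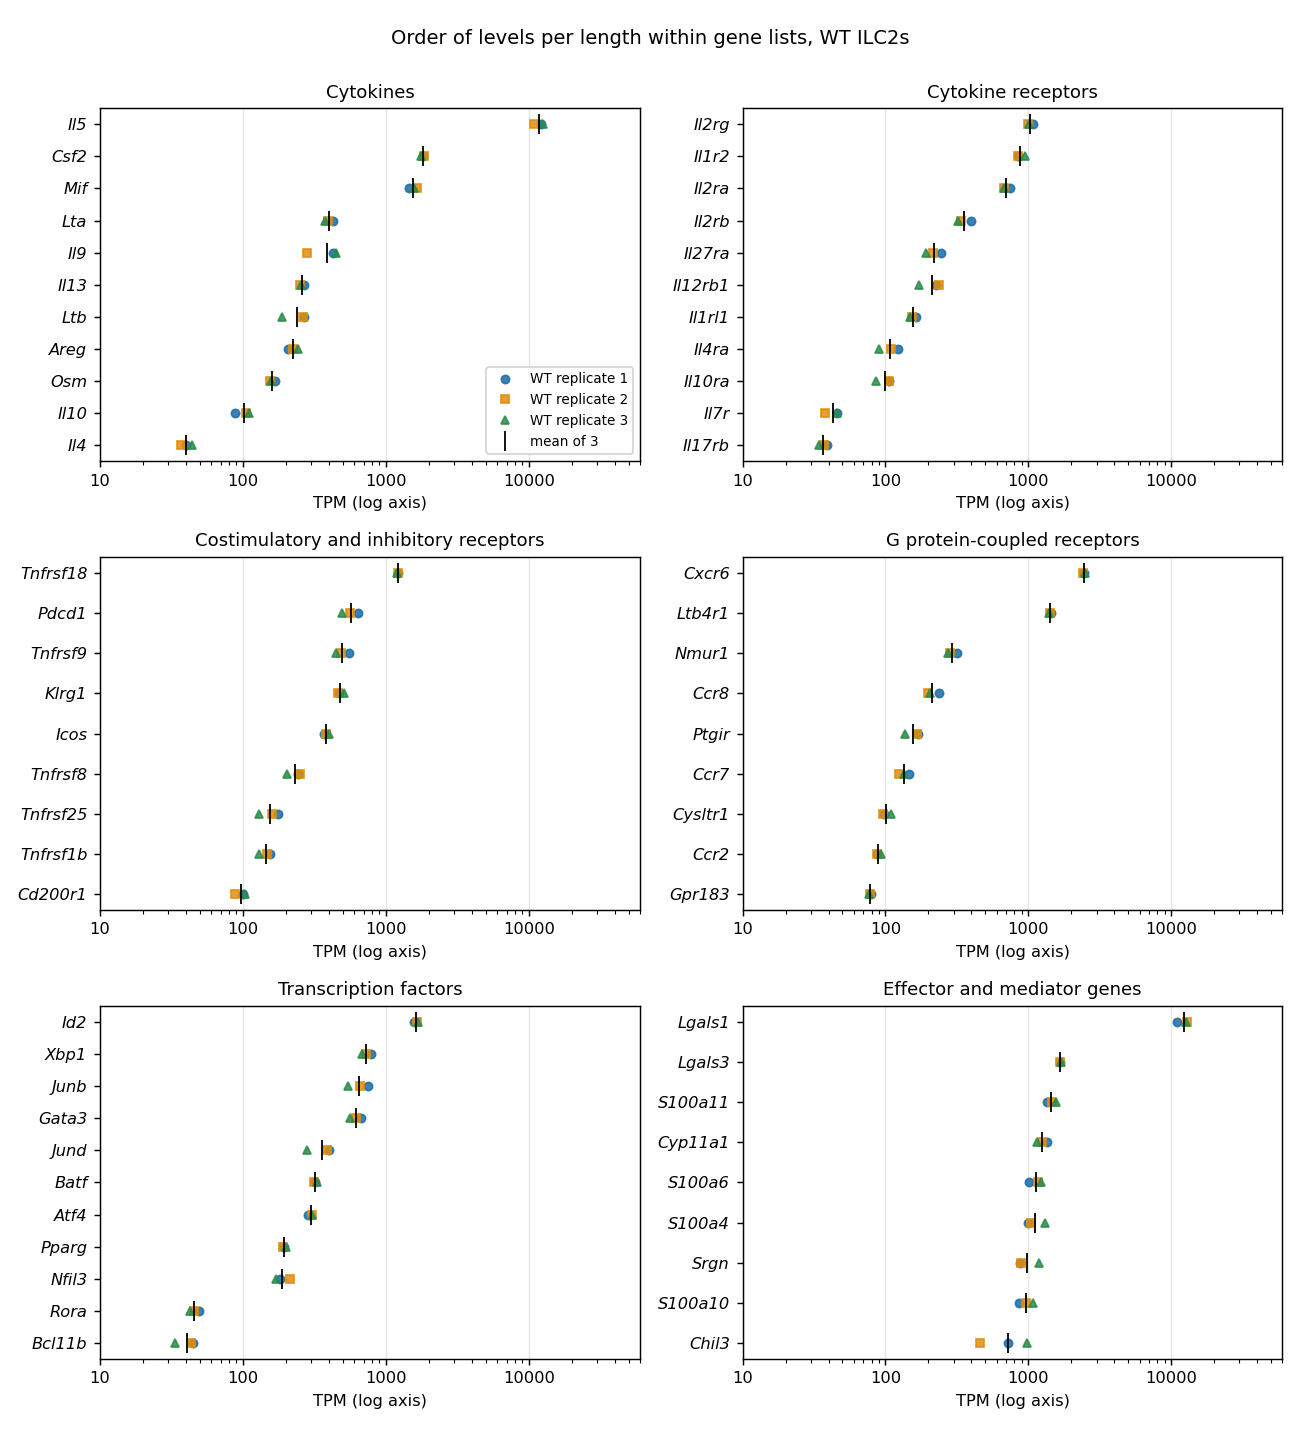
Level per length (TPM, log axis) in each WT library for the leading genes of 6 lists and for markers and other genes named in the text, with a bar at the mean of 3. Il5 and Lgals1 stand furthest from the next gene of their lists, and the middle of most lists is crowded, with overlapping points.

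Surface and adhesion genes included Cd53, a tetraspanin, at 1535 ± 191 TPM and Cd52, a small glycoprotein, at 851 ± 73.5 TPM. With the longest transcript Cd52 rose above Cd53, with 1477 against 1154 TPM. Selplg, the selectin ligand PSGL-1, was at 1245, 1232 and 1222 CPM, or 798 ± 29.3 TPM. The integrin beta chains Itgb7 and Itgb2 were at 612 ± 66.6 and 563 ± 52.3 TPM, and Cd48 was at 269 ± 63.7 TPM. Thy1, a common surface marker of ILC2s, was at 11.3, 14.5 and 13.7 CPM, or 12.1 ± 1.40 TPM. Of 30 genes 26 were detected, or 86.7%, beside 66.1% of all genes. Cd5, Cd6, Cd7 and Itga1 were not detected.

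Galectins, S100 proteins and a steroid enzyme led the effector and mediator genes. Of 34 genes 32 were detected, or 94.1%, beside 66.1% of all genes. Below Lgals1 came Lgals3, galectin-3, with 1670, 1666 and 1692 TPM, and the calcium-binding S100a11 with 1347, 1458 and 1551 TPM. Cyp11a1, which encodes the enzyme that turns cholesterol into pregnenolone, was at 2288, 2139 and 2057 CPM, or 1245 ± 101 TPM, and ranked 24 of all genes by CPM. S100a6 and S100a4 were at 1138 ± 118 and 1115 ± 164 TPM. Cyp11a1 was not separated from S100a11 or from S100a6. Arg1, the arginine-consuming enzyme arginase 1, was at 375, 383 and 407 CPM, or 481 ± 7.22 TPM. The granzyme genes Gzma and Gzmb, serine proteases of cytotoxic granules, were at 469 ± 62.8 and 402 ± 39.9 TPM. Chil3, a chitinase-like protein, varied more, with 416, 269 and 596 CPM.

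Lists for metabolism, growth and secretion were detected in full, beside 66.1% of all genes. All 20 glycolysis genes were detected, with a median of 136 TPM, and 8 of them were at 1000 TPM or more. Ldha, lactate dehydrogenase A, was at 5058, 5073 and 5369 CPM, or 4314 ± 48.3 TPM, followed by Aldoa with 3423 ± 149 TPM. Eno1 and Pkm were not separated from each other, and Gapdh and Tpi1 followed with 1948 ± 129 and 1192 ± 14.6 TPM. All 22 genes of cholesterol synthesis were detected at lower levels, with a median of 53.0 TPM and none at 1000 TPM. Fdps, farnesyl diphosphate synthase, was at 269, 295 and 280 CPM, or 185 ± 8.70 TPM, and Ebp, a sterol isomerase, at 169 ± 20.1 TPM. Mvd, Pmvk, Idi1 and Cyp51 had means between 85.3 and 96.7 TPM and were not separated.

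All 30 proliferation genes were detected, with a median of 214 TPM. Besides Tuba1b, Rrm2, the inducible subunit of ribonucleotide reductase, was at 1459, 1553 and 1454 CPM, or 1486 ± 75.2 TPM. Tubb5, a beta-tubulin gene, was at 1290 ± 37.4 TPM, Hmgb2, a chromatin protein, at 1127 ± 42.6 TPM, Stmn1, a microtubule regulator, at 782 ± 21.9 TPM and the replication clamp Pcna at 433 ± 14.01 TPM. Mki67, the proliferation antigen, was at 386, 378 and 366 CPM. The median CV of this list was 4.60% at a median level of 374 CPM, beside 6.95% over all genes from 100 to 1000 CPM. The 26 genes of protein folding and secretion were also all detected and had the highest median level of the lists, 508 TPM. Pdia3, a disulfide isomerase, Calr, a chaperone of glycoproteins, and Sdf2l1 were at 1318 ± 112, 1240 ± 47.5 and 1189 ± 87.0 TPM without separation among them. Pdia6, Hspa5 (the chaperone BiP) and P4hb followed with 986 ± 32.1, 978 ± 73.2 and 909 ± 74.5 TPM.

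No gene of the chemokine list reached 100 TPM. Of 20 genes 13 were detected, or 65%, near the 66.1% of all genes, and their median of 7.19 TPM was near the 6.40 TPM of all genes. Ccl3, Ccl6 and Ccl4 were at 60.8 ± 7.05, 59.7 ± 11.8 and 58.5 ± 9.80 TPM with overlapping values, so no leader could be named. Ccl6 led when counts were not divided by length, with the longest transcript, and without replicate 1 or replicate 2. Ccl9, Cxcl3 and Ccl5 followed with 26.6 ± 0.405, 22.0 ± 1.52 and 18.4 ± 4.04 TPM.

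Markers of other cell types were not all low. The median over all genes with a known length was 6.40 TPM, and 66.1% of all genes were detected. List medians were 22.2 TPM for B or plasma cell genes, 15.0 for epithelial genes and 11.9 for macrophage, monocyte or dendritic cell genes. Endothelial and eosinophil genes had medians of 11.7 and 8.53 TPM. Neutrophil, erythroid, T cell and mast cell or basophil genes had 5.05, 4.57, 4.11 and 3.98 TPM. NK cell, ILC1 or ILC3 genes had 1.03 TPM. The endothelial median was over only 2 genes, Pecam1 with 23.2 ± 2.63 TPM and Tek, not detected, with 0.210 ± 0.336 TPM. The listed endothelial genes Cdh5, Kdr and Cldn5 were absent from the table. The eosinophil median was the level of Epx, which was not detected. Igkc and Ighm, the constant regions of immunoglobulin kappa and mu chains, brought the summed level of 8 B or plasma cell genes, 7 of them detected, to between 4738 and 7489 TPM, lowest in replicate 2 and highest in replicate 3. Ighm was at 1173, 896 and 1364 CPM and Jchain, the joining chain of secreted antibodies, at 137, 119 and 164 CPM. Ms4a1, the B cell surface protein CD20, had a mean of 1.15 CPM. All 156 immunoglobulin segments together held 0.265, 0.212 and 0.328% of counts. The T cell list, 5 of 10 genes detected, summed to 859 to 956 TPM, of which 68.8% was Trbc2, a constant region of the T cell receptor beta chain. Trbc2 was at 145, 152 and 168 CPM, Trbc1 at 56.8, 57.5 and 66.4 CPM and Cd3g at 41.0, 49.0 and 57.5 CPM, while Trac, the alpha chain constant region, was at 1.13, 0.427 and 1.47 CPM. Cd3e had a mean of 9.05 CPM, Cd4 of 0.392 CPM and Cd8a of 0.449 CPM.

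Of 12 mast cell or basophil genes 8 were detected, or 66.7%, near the 66.1% of all genes, and the list summed to 512 to 610 TPM. Tpsab1, a mast cell tryptase, was at 289, 241 and 235 CPM, and reads of tryptase copies may be shared between genes. Cma1 and Cpa3, other mast cell proteases, were at 68.7 ± 10.6 and 51.2 ± 5.16 TPM. Fcer1a was at 4.89 ± 0.306 TPM, and Mcpt1, Mcpt2, Mcpt4 and Ms4a2 were not detected. The macrophage, monocyte or dendritic cell list, 9 of 12 genes detected, summed to 544 to 636 TPM. It was led by Cd74, the invariant chain of MHC class II, with 177 ± 20.3 TPM. Lyz2 was at 138 ± 29.5 TPM and H2-Ab1 at 121 ± 13.4 TPM. Csf1r and Adgre1 were at 5.52 ± 1.19 and 5.32 ± 2.20 TPM, and Mrc1, Marco and Flt3 were not detected. The epithelial list, 7 of 8 genes detected, ranged from 297 TPM in replicate 2 to 765 TPM in replicate 3. Scgb1a1, the secretoglobin of airway club cells, was at 49.0, 27.7 and 100 CPM, Sftpc, a surfactant protein of alveolar type 2 cells, at 48.0, 22.9 and 30.3 CPM, and the adhesion molecule Epcam at 48.6, 45.8 and 47.9 CPM. Cdh1 was at 2.31 ± 0.774 TPM, and Sftpb was not detected. The part of such other cells in the ILC2 levels above was not tested.

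The eosinophil list, 1 of 5 genes detected, ranged from 12.5 TPM in replicate 3 to 110 TPM in replicate 2, following Prg2, eosinophil major basic protein, with 8.64, 25.0 and 0.134 CPM, and Epx, eosinophil peroxidase, with 7.45, 17.6 and 0 CPM. Ccr3 did not vary in that way, with 11.6, 9.61 and 13.0 CPM. The neutrophil list, 3 of 6 genes detected, was likewise highest in replicate 2, where Mpo, myeloperoxidase, was at 34.0 CPM beside 3.29 and 2.003 CPM. The list of NK cells, ILC1s or ILC3s, 3 of 7 genes detected, summed to 48.3 to 84.5 TPM, of which 89.5% was the cytokine gene Il22, with 24.5, 16.4 and 32.6 CPM. The endothelial list, 1 of 2 genes detected, summed to 21.2 to 25.9 TPM, and the erythroid list, 1 of 3 genes detected, to 14.4 to 17.2 TPM. The fibroblast gene Col1a2 had no count in any library, which allows up to 0.0574 CPM over the group for counting error alone. Xist, transcribed from the inactive X chromosome of females, was at 63.7, 72.5 and 84.2 CPM. The Y-linked genes Ddx3y, Uty, Kdm5d and Eif2s3y of the same list were absent from the table, so RNA from males could not be checked.

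**Figure D3:**
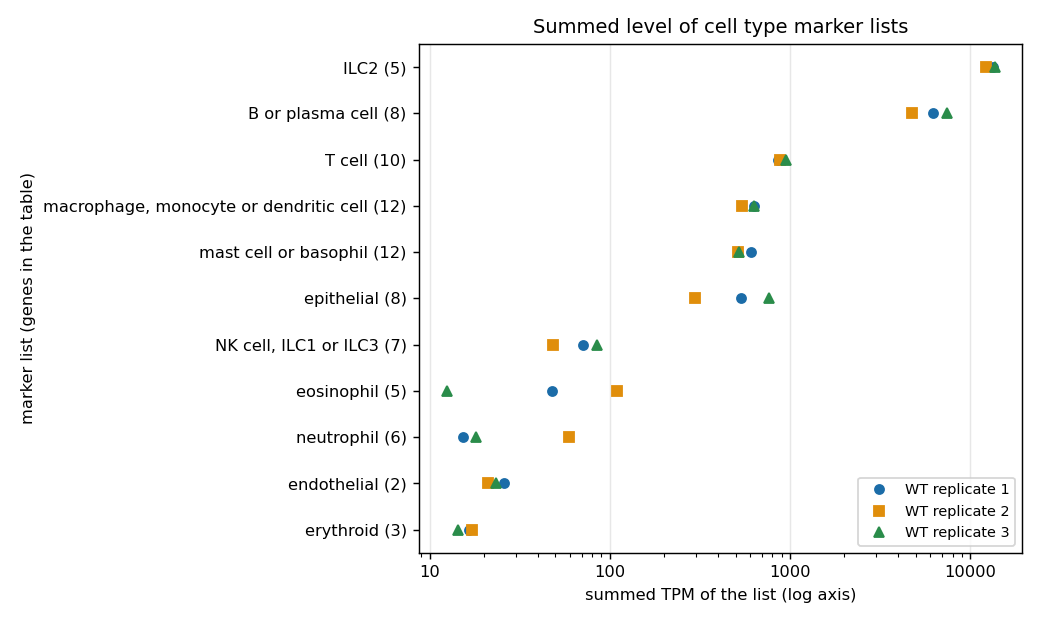
Summed TPM (log axis) of cell type marker lists in each WT library, with the number of genes in the table in brackets; the fibroblast list, at 0, is left out. The ILC2 list lies highest in every library, where 90.1% of it is Il5, the B or plasma cell list is second, and the eosinophil, neutrophil and epithelial lists differ most between libraries. Without their leading genes the ILC2 list sums to 1296 TPM and the B or plasma cell list to 1880 TPM.

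Replicates differed by more than counting error at every level of expression. The common biological coefficient of variation of edgeR over 12896 genes was 15.1%. The median CV was 4.53% for genes with a mean of 1000 CPM or more, 6.95% from 100 to 1000 CPM, 10.0% from 10 to 100 CPM and 25.3% from 1 to 10 CPM. Counting error alone would give 0.630, 1.80, 4.16 and 13.7% at those levels. The gap was widest in proportion among the most abundant genes. Pairs of libraries correlated across 12848 genes with Pearson r of 0.988 for replicates 1 and 2, 0.984 for 1 and 3 and 0.983 for 2 and 3, on log2 CPM. These are correlations across genes, which are not independent replicates, and a chi-square of the counts was 8.36, 16.6 and 13.6 per degree of freedom for these pairs, so no library was a copy of another.

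Genes with the steadiest and the most variable levels were taken from those with a mean of 50 CPM or more. Prr13 had 615, 614 and 613 CPM, a CV of 0.144%, and Nfkbia, the NF-κB inhibitor, had 202 CPM in each library, a CV of 0.1504%. The other steady genes were Dhx38, Rhoa, Eri1, Meaf6, Bzw2, Hsp90b1, Cct6a and Metap2, with a CV of at most 0.455%. All 10 lay below the CV of counting error alone; they are the lowest among 4171 genes. At the other end Ybx3, which encodes a nucleic acid binding protein, had 119, 50.5 and 22.9 CPM, a CV of 77.2%. Cebpb, a bZIP transcription factor, had 108, 77.5 and 17.9 CPM. Rcc2, a regulator of chromosome condensation, had 342, 197 and 98.4 CPM, and Akt1, a kinase downstream of PI3K, had 307, 191 and 85.5 CPM. Basp1, Lemd2, Adap1 and Snx20 were also highest in replicate 1 and lowest in replicate 3. Scgb1a1 and Ly6a, a surface antigen with 72.1, 74.8 and 145 CPM, were instead highest in replicate 3.

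**Figure D4:**
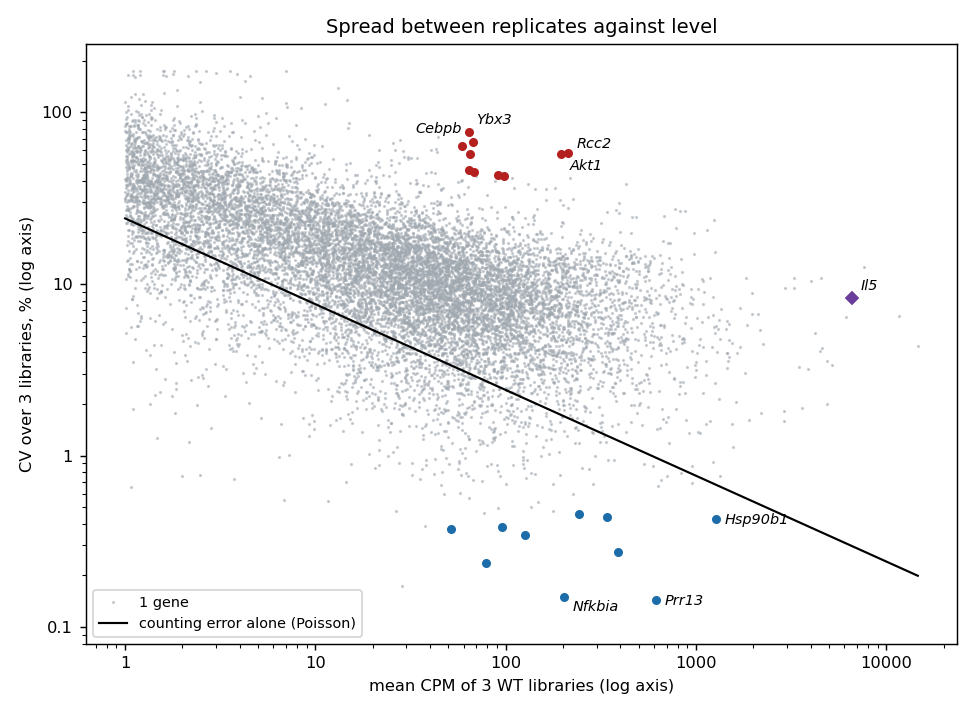
CV over the 3 WT libraries (%, log axis) against mean CPM (log axis) for each gene with a mean of 1 CPM or more, with the CV that counting error alone gives as a line. The 10 most variable genes at 50 CPM or more are red, the 10 steadiest are blue and lie below the line, and Il5 (purple diamond) has a CV of 8.33%.

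Among genes with a mean of 10 CPM or more, 53 cases were found in which a library was at least 2-fold above or below both others. Replicate 1 was higher for 7 genes and lower for 3, and replicate 2 was higher for 2 genes, Prg2 and Mpo, and lower for 5. Replicate 3 was higher for 3 genes, Scgb1a1, Retnla and the segment Igkv1-117, and lower for 33. Retnla, a resistin-like secreted protein, had 25.9, 26.2 and 80.8 CPM. The 33 genes lower in replicate 3 included Ybx3, Cebpb, Akt1, Rcc2, Basp1, Lemd2 and Snx20, and had a median GC content of 54.3% and a median longest transcript of 3612 bases, beside 49.6% and 3261 bases over 8551 genes. Across all of those genes, replicate 3 minus the mean of the other two had a median log2 difference of 0.08 in the 1707 genes with the lowest GC content and -0.12 in the 1707 with the highest. By length the same difference was 0.11 in the 1707 shortest and -0.10 in the 1707 longest. Between replicates 1 and 2 these medians stayed between -0.04 and 0.03. Gata3, Junb, Jund and Xbp1 were lowest in replicate 3 and Il5, Tmsb4x and B2m were highest in it, and the part of GC content or length in those values was not tested.

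**Figure D5:**
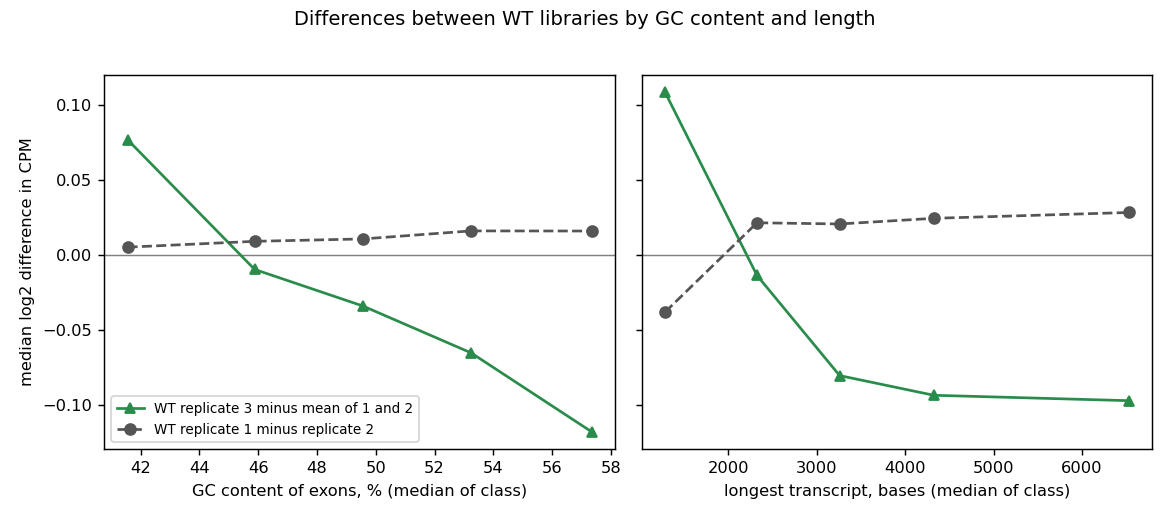
Median log2 difference in CPM between WT libraries for 5 equal classes of genes by GC content of exons (left) and by longest transcript (right). The line for replicate 3 falls from 0.08 to -0.12 with GC content and from 0.11 to -0.10 with length, while the line for replicate 1 minus replicate 2 stays between -0.04 and 0.03.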

How the data were processed

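RNA of 3 WT libraries was analysed, and the 3 ICOS KO libraries were not used. Per the labels' protocols, cDNA was made with the SMARTer Ultra Low Input v3 kit, and no molecular identifiers are named, so reads are not independent molecules and floors cover counting error only. The authors deposited estimated counts per gene, for which the submitters' processing notes name the build mm10; 40.5% of the WT values were not whole, and no column was left unused. The submitters' processing notes name STAR 2.7.8, Partek 10.0, DESeq2 and the build mm10, with no role or order. How reads were counted, on which annotation and with which strand setting is not given in the sources used here, so reads of a gene and its antisense partner, such as Il5 and Gm12214, cannot be told apart. The series text speaks of duplicates, while 3 WT libraries were present.

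CPM used library totals. TPM used the exon union length of GENCODE M21 (GRCm38), matched by symbol for 17691 genes and by synonym for 187; 244 genes, with 0.171% of counts, had no length. The median GC content and length come from the same annotation. Dispersion was estimated with edgeR 4.0.16 (R 4.3.3) on rounded counts with TMM factors and was tested on simulated data. No test between groups was made, and a floor is 3 counts. Promoters come from the RefSeq table of GRCm38.p6.

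Named genes were the 20 highest by CPM and by TPM, the 6 highest by TPM of each of 12 lists, the ILC2 markers and Icos, the 10 highest and lowest CV at 50 CPM or more, and the 3 most abundant genes of each of 13 marker lists. Results of some list members are not reported here. Other named genes and the promoters printed were chosen after their values were seen. The WT group, the members and the lists were chosen with earlier results of these data known. Alternatives changed the detection threshold, the scaling (TMM, DESeq2 1.42.0 size factors), the length, the filter and the libraries included; the comparison by GC content and length and the other GATA letters were added after the data were seen.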

Additional observations from a re-analysis of the deposited data

How the results depend on the processing

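No paired analysis was possible because only the WT group was described and no result comes from a test between groups. The share of counts in the 100 most abundant genes was 28.3% per length, beside 21.4% by CPM. Il5 ranked 5 per length with the exon union and 5 with the longest transcript, beside 4 by CPM. The biological coefficient of variation was 20.1% with no filter on low counts and 12.2% for genes of at least 5 CPM in every library; with each library left out in turn it ranged from 12.3 to 16.6%, lowest without replicate 3. The cases in which a library was 2-fold apart numbered 10 at a mean of 50 CPM or more (4171 genes), beside 53 at 10 CPM (8551 genes), and 51 with TMM scaling; the cause was not tested. Detected genes numbered 9422 at a threshold of 5 CPM and 13725 when 1 library at 1 CPM was enough. Of 60 neighbouring steps among the 6 highest genes of each of the 12 lists 35 were separated, and 36 with the longest transcript. Below those genes most steps were not separated. With that length 80 of 112 named levels moved by more than their SD, and 9 of 12 lists kept their leading gene; Ccl6, Cd52 and Pdia6 led the other three. By CPM 8 lists kept it, and Ccl6, Il2ra, Selplg and Hspa5 led the other four. Leaving out mitochondrially encoded genes moved 4 named levels by more than their SD. Leaving out 1 library moved 2 of these 112 levels by over 1.5 times: Ybx3 from 64.1 to 36.7 CPM without replicate 1 and Scgb1a1 from 59.0 to 38.4 CPM without replicate 3. Marker list genes that no other rule named were not among the 112 levels. Some of these differed more between libraries, such as Epx with 8.53 ± 8.97 TPM. Depth limits statements on genes from 1 to 10 CPM, whose median CV was 25.3%, where counting error alone would give 13.7%.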

Other observations

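Neighbouring genes at 4 places in the genome were compared after their values were seen. On chromosome 11 the segment chr11:53567379-54249667 (GRCm38) runs from Kif3a to Csf2 and holds 20 genes of the table, of which 12 were detected. Il5 was at 11857 ± 802 TPM there, while Rad50, the DNA repair gene between Il13 and Il5, was at 67.0 ± 5.48 TPM and Irf1, an interferon-related transcription factor on its other side, at 52.9 ± 4.82 TPM. Kif3a, a kinesin gene next to Il4, was at 28.3 ± 1.501 TPM. The antisense gene Gm12214, which overlaps Il5 on the opposite strand, had 21.8, 19.5 and 24.3 CPM. Towards the other end of the segment Slc22a4 and Pdlim4 were below 1 CPM, and Csf2 was at 522 ± 7.88 CPM. P4ha2, a collagen prolyl hydroxylase gene and the protein-coding gene nearest to Csf2 within the segment, was at 59.9 ± 5.04 CPM. Genes beyond Csf2 were not compared.

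On chromosome 1, at chr1:40074079-40551705, Il1r2 and Il1rl1 were at 878 ± 57.1 and 155 ± 8.51 TPM, whereas Il1r1 and Il1rl2 between them were at 0.167 ± 0.130 and 1.61 ± 0.638 TPM. Il18r1, which begins just after Il1rl1, was at 6.61 ± 0.857 TPM and its partner Il18rap at 24.5 ± 2.10 TPM. On chromosome 9, at chr9:123678439-124147699, Cxcr6 was at 2449 ± 45.4 TPM between Ccr9 at 0.388 ± 0.124 TPM and Xcr1 at 22.3 ± 0.805 TPM, and Ccr2 was at 89.1 ± 3.48 TPM. On chromosome 17, at chr17:35194439-35205351, Ltb and Lta were at 239 ± 45.0 and 397 ± 27.7 TPM on both sides of Tnf at 36.8 ± 4.87 TPM.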
